A study of Arabidopsis thaliana with 4 samples.

Results

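The beta-tubulin genes of Arabidopsis thaliana are the 9 loci TUB1 to TUB9, taken by locus number from the 33518 loci counted in this series, and all 9 were tested. RNA came from whole seedlings grown for 5 days on MS medium at reduced strength under constant light. The HBI1-Ox seedlings (2 libraries) carry 35S::HBI1-YFP, a fusion of the bHLH transcription factor HBI1 with yellow fluorescent protein driven by the cauliflower mosaic virus 35S promoter, which is active in most plant tissues. The Col-0 seedlings (2 libraries) are the wild-type accession. The labels name 1 overexpressing line. They number the libraries but do not tie them to separate plantings, so the p-values below reflect a spread that may be technical.

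Microtubules are built from dimers of alpha-tubulin and beta-tubulin. In growing plant cells they lie in an array under the plasma membrane that guides cellulose synthase complexes and so the direction of cell expansion. Both subunits come from small gene families. Each protein ends in an acidic tail that faces outward from the microtubule, is contacted by microtubule-associated proteins and varies among isotypes. HBI1 promotes cell elongation, and bHLH proteins as a class bind DNA at E-boxes.

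The end of this tail is shown first, as the last 60 coding bases before the stop codon of each gene on its coding strand (RefSeq annotation and sequence, TAIR10.1). Capitals mark codons for glutamate, GAA or GAG.
TUB1: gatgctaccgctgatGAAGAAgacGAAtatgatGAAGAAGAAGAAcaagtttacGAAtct
TUB2: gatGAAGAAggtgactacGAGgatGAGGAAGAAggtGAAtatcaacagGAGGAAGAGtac
TUB3: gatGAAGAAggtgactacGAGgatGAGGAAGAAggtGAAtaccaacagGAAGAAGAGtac
TUB4: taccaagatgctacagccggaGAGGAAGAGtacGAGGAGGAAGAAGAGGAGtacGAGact
TUB5: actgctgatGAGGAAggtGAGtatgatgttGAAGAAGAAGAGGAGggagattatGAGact
TUB6: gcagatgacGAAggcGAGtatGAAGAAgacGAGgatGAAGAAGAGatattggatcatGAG
TUB7: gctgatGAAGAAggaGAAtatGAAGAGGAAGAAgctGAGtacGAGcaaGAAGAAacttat
TUB8: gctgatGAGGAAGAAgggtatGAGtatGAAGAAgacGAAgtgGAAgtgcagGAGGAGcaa
TUB9: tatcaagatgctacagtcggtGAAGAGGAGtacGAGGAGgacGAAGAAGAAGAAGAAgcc
Between 8 (TUB1) and 11 (TUB7) of the 20 codons were for glutamate. TUB2 and TUB3 differed by T42C and G51A, counted from 1 at the first base shown, with the base of TUB2 first. Over the whole coding sequence their 1353 bases matched at 97.6%, with 32 mismatches, and the encoded proteins were identical over 450 residues. By coding sequence the next closest pairs were TUB4 with TUB9 (87.5% of coding bases, 96.6% of residues) and TUB1 with TUB5 (87.4% and 95.5%). Over all 36 pairs the coding identity ran from 78.7% to 97.6% and the protein identity from 90.6% up to the full identity of TUB2 and TUB3. The isotypes also differed outside the bases shown: TUB4 and TUB6 had 37 mismatched residues, more than 20 codons can hold.

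All 9 genes have 3 coding exons and encode 444 to 450 residues. Of the 9, TUB2, TUB3, TUB4, TUB6 and TUB8 lie on chromosome 5. TUB2 (AT5G62690; chr5:25181296-25183811, plus strand, TAIR10.1) and TUB3 (AT5G62700; chr5:25184258-25186777, plus strand) are neighbours separated by 446 bases. Of the exonic windows of 50 bases, 22.6% in TUB2 and 22.3% in TUB3 occurred in the other gene, so their separate values are uncertain. For the other 7 genes at most 0.2% of such windows occurred elsewhere in the nuclear genome. Annotated exons of other genes overlapped 34.4% of the exonic bases of TUB1, 22.8% of TUB7, 21.0% of TUB9 and 4.2% of TUB6. For TUB1, TUB7 and TUB9 these genes lie on the opposite strand. Reads there may have been left out as ambiguous or shared, since no source used here states the strand setting of the counting. For TUB6 the overlapping gene lies on the same strand, so no strand setting would separate such reads.

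HBI1 was examined first as a check of the labels. It had 1567 and 1509 CPM (reads relative to the TMM-scaled library size) in the HBI1-Ox libraries, against 99.3 and 84.6 CPM in the Col-0 libraries. Total reads on genes ranged from 10785178 to 19647745 per library, and every beta-tubulin gene had at least 653 reads in each library. Between the HBI1-Ox libraries the differences were little beyond counting error, with a mean chi-square of 1.23 per gene, against 8.08 for the Col-0 libraries. Markers of pollen summed to at most 0.0703 CPM, and those of green tissue to at least 39127 CPM, in each library.

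In HBI1-Ox seedlings 5 beta-tubulin genes rose relative to Col-0 and none fell. TUB6 had the largest log2 change (0.55 ± 0.06, 1.46-fold; ± standard error throughout), followed by TUB8 (0.48 ± 0.12), TUB3 (0.35 ± 0.05), TUB2 (0.26 ± 0.06) and TUB5 (0.26 ± 0.06). TUB1, TUB4, TUB7 and TUB9 did not pass the test. Thus 5 of 9 were called higher (adjusted p under 0.05 over 20320 genes in edgeR, quasi-likelihood fit, Benjamini-Hochberg), where 8.33% of all tested genes were called higher and 7.15% lower. Since these are abundant transcripts, a second background was taken after the values were seen: of 3824 genes averaging 50 CPM or more, 20.9% were called higher and 7.3% lower. The median log2 change was 0.26 over the 9 genes, -0.01 over all tested genes and 0.08 over those 3824. The calls depended on counting the HBI1-Ox libraries as separate samples: no beta-tubulin gene passed with these libraries summed as 1 sample, or without HBI1-Ox library 1 or 2, while 8 passed when either Col-0 library was left out. With scaling by library totals the median of all genes shifted by -0.15, 2 genes (TUB3 and TUB6) passed, and TUB4 and TUB9 had negative values; with the replicate number as a block 3 passed (TUB3, TUB6 and TUB8).

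**Figure D1:**
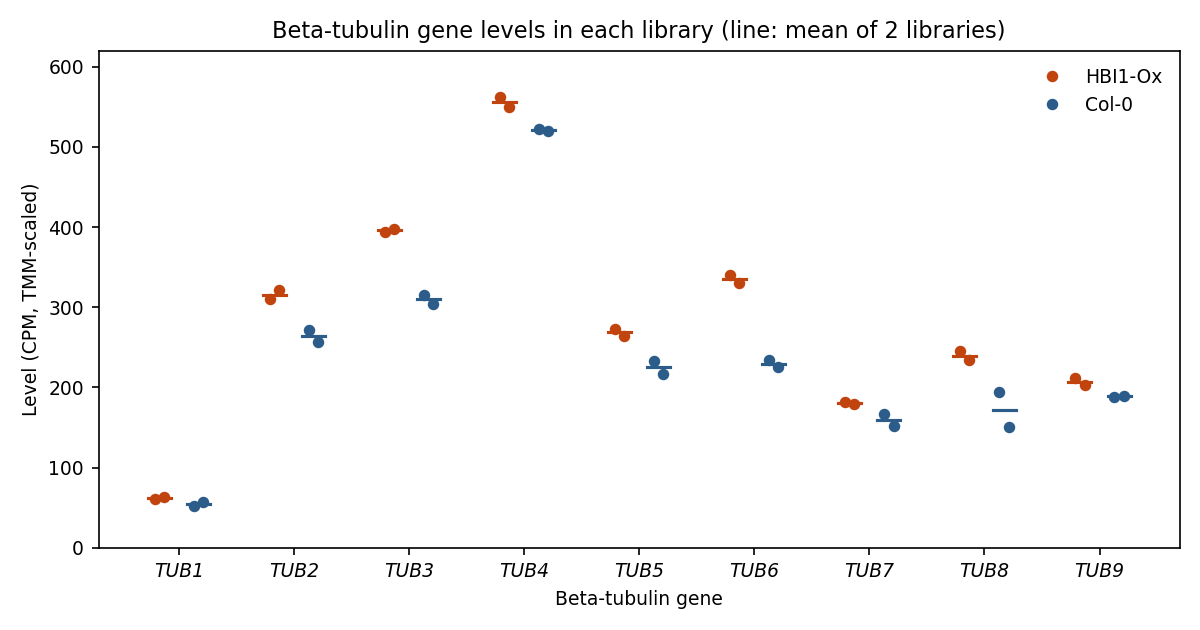
Level of each beta-tubulin gene in each library, in CPM on the TMM-scaled library (linear axis from 0), with HBI1-Ox left of Col-0; each point is a library and each line the mean of 2 libraries. TUB4 was the highest gene in every library and TUB1 the lowest. For all 9 genes both HBI1-Ox points lie above both Col-0 points, as they do for 29.7% of all tested genes.

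TUB6 (AT5G12250; chr5:3960938-3963624, minus strand, TAIR10.1), an isotype whose transcript is known to fall in the cold, had 340.9 and 330.4 CPM in the HBI1-Ox libraries, against 234.2 and 225.2 CPM in the Col-0 libraries. The gap between the groups was wider than that between libraries of either group. The means were 335.7 ± 7.4 CPM in HBI1-Ox and 229.7 ± 6.4 CPM in Col-0 (SD, n = 2 libraries each), with an edgeR adjusted p of 0.00198. TUB6 kept its call with scaling by library totals (log2 change 0.40), but lost it once the HBI1-Ox libraries were summed (adjusted p = 0.0598 in edgeR), where its log2 change was again 0.55.

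TUB8 (AT5G23860; chr5:8042853-8044934, plus strand) had 245.0 and 234.2 CPM in the HBI1-Ox libraries, against 194.3 and 150.1 CPM in the Col-0 libraries. It was the member on which the Col-0 libraries disagreed most. Its adjusted p was 0.0406 (edgeR), and the log2 change came to 0.69 without Col-0 library 1 and to 0.30 without the other. With scaling by library totals it missed the threshold (log2 change 0.33, edgeR adjusted p = 0.0632).

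TUB3 had 394.1 and 398.0 CPM in the HBI1-Ox libraries, against 315.6 and 304.5 CPM in the Col-0 libraries (edgeR adjusted p = 0.00837). TUB2, its neighbour with the same protein, had 310.1 and 321.0 CPM in HBI1-Ox, against 271.1 and 256.4 CPM in Col-0 (edgeR adjusted p = 0.0318). In both genes each HBI1-Ox library stood above each Col-0 library. With the counted reads of both loci added into 1 row, their split between the copies no longer matters. The log2 change was then 0.31 (edgeR adjusted p = 0.0133). Any reads left uncounted because they match both copies would still be missing.

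TUB5 (AT1G20010; chr1:6937719-6940832, minus strand) had 273.0 and 264.8 CPM in the HBI1-Ox libraries, against 233.2 and 217.3 CPM in the Col-0 libraries (edgeR adjusted p = 0.037). TUB2 and TUB5 both missed the threshold with scaling by library totals, with log2 changes of 0.11 each.

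The other genes had smaller differences. TUB4 (AT5G44340; chr5:17859136-17861150, minus strand), the most abundant isotype here, had 562.6 and 550.2 CPM in the HBI1-Ox libraries, against 522.5 and 519.7 CPM in the Col-0 libraries, with a log2 change of 0.09 ± 0.05 (edgeR adjusted p = 0.272). TUB9 (AT4G20890), its closest relative in sequence, had 211.3 and 203.4 CPM in HBI1-Ox, against 188.7 and 189.1 CPM in Col-0, with a log2 change of 0.13 ± 0.05 (edgeR adjusted p = 0.155). Neither passed, and both turned negative with scaling by library totals (-0.06 for TUB4 and -0.02 for TUB9).

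TUB1 (AT1G75780), whose transcript is known mainly from roots, had 61.5 and 63.2 CPM in the HBI1-Ox libraries, against 52.4 and 56.6 CPM in the Col-0 libraries. Its log2 change was 0.19 ± 0.07 (edgeR adjusted p = 0.112). TUB7 (AT2G29550) had 182.0 and 179.7 CPM in HBI1-Ox, against 167.3 and 151.5 CPM in Col-0, with a log2 change of 0.18 ± 0.07 (edgeR adjusted p = 0.12). On the TMM scale the lower HBI1-Ox library exceeded the higher Col-0 library in all 9 genes. Of all tested genes, 29.7% showed such a separation in this direction. It was lost at least for TUB4 and TUB9 with scaling by library totals, where their log2 changes were -0.06 and -0.02. None of the 9 genes is in the authors' deposited table of 1256 log2 changes, whose smallest absolute value is 0.56.

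**Figure D2:**
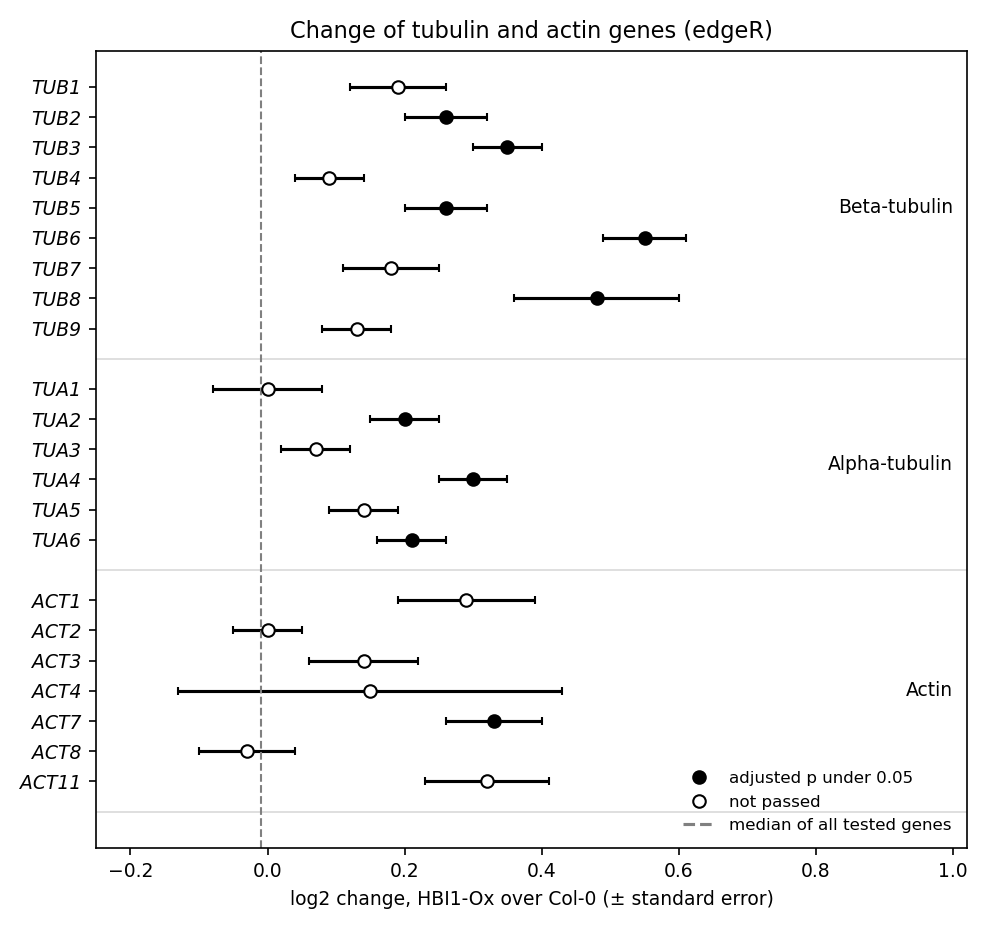
Log2 change of HBI1-Ox over Col-0 with its standard error for the 9 beta-tubulin genes, the 6 alpha-tubulin genes and the 7 tested actin genes; filled points had an edgeR adjusted p under 0.05 and the dashed line is the median of all tested genes (-0.01). TUB6 at 0.55 and TUB8 at 0.48 lie farthest to the right.

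Ratios within a library do not depend on scaling between libraries, so each gene's reads were also divided by those of TUB4. Since TUB4 had the smallest log2 change of the members (0.09), the mean ratio of every other member was higher in HBI1-Ox. TUB6 had 0.606 and 0.601 reads per TUB4 read in the HBI1-Ox libraries, against 0.448 and 0.433 in the Col-0 libraries. TUB3 had 0.701 and 0.723 in HBI1-Ox, against 0.604 and 0.586 in Col-0, and TUB8 had 0.435 and 0.426 in HBI1-Ox, against 0.372 and 0.289 in Col-0. For TUB9 the ratios lay close together, at 0.376 and 0.370 in HBI1-Ox and 0.361 and 0.364 in Col-0. The groups nearly met for TUB1 (0.109 and 0.115 in HBI1-Ox, 0.1 and 0.109 in Col-0) and TUB7 (0.324 and 0.327 in HBI1-Ox, 0.32 and 0.292 in Col-0). These ratios are given as values: an exact two-sided permutation test of 2 against 2 libraries cannot go below p = 0.33, and no other test of unequal change among the isotypes was run.

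Levels were compared between genes per length, as RPKM (CPM per kilobase of annotated exon). TUB4 led in both groups, with 309.6 ± 4.9 RPKM in HBI1-Ox and 290.0 ± 1.1 RPKM in Col-0 (SD, n = 2 each). TUB3 followed with 203.4 ± 1.4 in HBI1-Ox and 159.3 ± 4.0 in Col-0. TUB6 had 170.7 ± 3.8 in HBI1-Ox and 116.8 ± 3.3 in Col-0, and TUB2 had 163.8 ± 4.0 in HBI1-Ox and 136.9 ± 5.4 in Col-0, so TUB6 stood above TUB2 in HBI1-Ox and below it in Col-0. TUB5 had 133.5 ± 2.9 RPKM in HBI1-Ox and 111.8 ± 5.6 in Col-0, and TUB8 had 128.5 ± 4.1 in HBI1-Ox and 92.3 ± 17 in Col-0. TUB7 had 99.6 ± 0.91 in HBI1-Ox and 87.8 ± 6.1 in Col-0, and TUB9 had 95.1 ± 2.6 in HBI1-Ox and 86.6 ± 0.13 in Col-0. TUB1 came last, with 34.6 ± 0.7 in HBI1-Ox and 30.3 ± 1.7 in Col-0. In Col-0, TUB6 and TUB5 were not separated beyond their spread, nor were TUB8, TUB7 and TUB9, and in HBI1-Ox TUB5 and TUB8 differed by about their spread. As an alternative chosen after seeing the data, the same reads were divided by the exon length without bases shared with other annotated genes. This can only raise a value. It gave TUB1, TUB6, TUB7 and TUB9 in Col-0 46.1, 122, 114 and 109.6 RPKM, which put TUB7 and TUB9 within the spread of TUB5. These values hold only if no read from the shared bases was counted, which is not known.

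**Figure D3:**
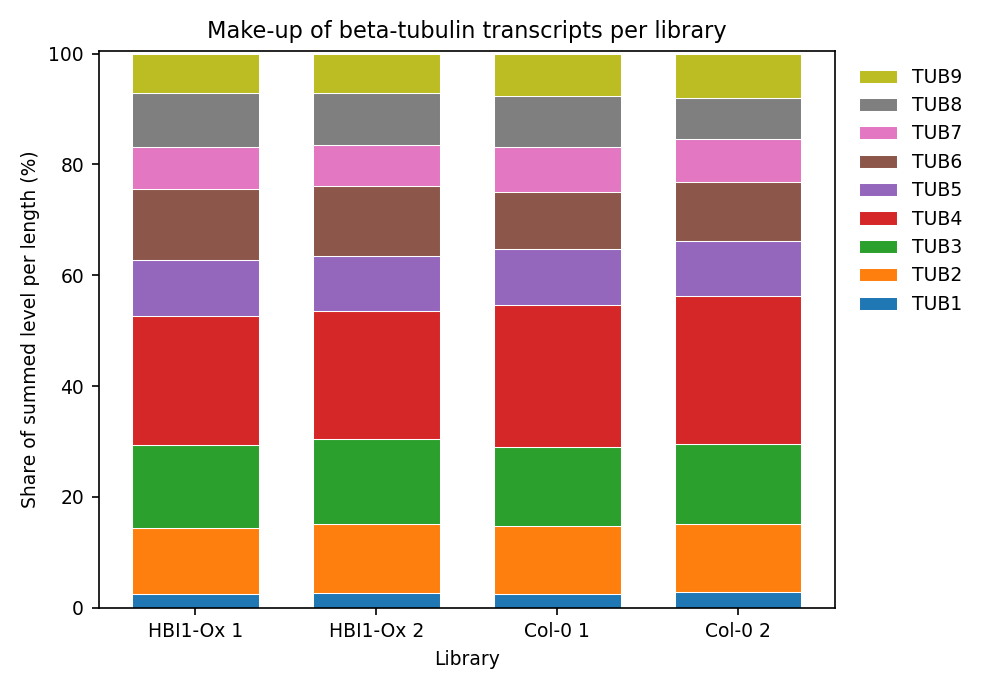
Share of each gene in the summed beta-tubulin level per length (percent, stacked to 100), in the 2 HBI1-Ox libraries and the 2 Col-0 libraries. The TUB6 share is 12.9% and 12.6% in HBI1-Ox against 10.4% and 10.6% in Col-0, and the TUB4 share is 23.2% and 23.0% against 25.5% and 26.7%.

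Within the family total, TUB6 made up 12.9% and 12.6% of the summed level per length in the HBI1-Ox libraries, against 10.4% and 10.6% in the Col-0 libraries. TUB4 made up 23.2% and 23.0% in HBI1-Ox, against 25.5% and 26.7% in Col-0. Both shares separated the groups by more than their libraries differed, without a test. The 9 genes together took 0.244% and 0.242% of all gene reads in the HBI1-Ox libraries, against 0.226% and 0.221% in the Col-0 libraries. The exact 95% binomial intervals, which cover counting error only, ran from 0.2393% to 0.2465% over the HBI1-Ox libraries and from 0.2185% to 0.2285% over the Col-0 libraries.

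Alpha-tubulin is the partner subunit of the dimer. Of its 6 genes 3 rose, none fell and 3 did not pass, with a median log2 change of 0.17. Calls as higher took 8.33% of all tested genes. They took 20.9% of those averaging 50 CPM or more, whose median log2 change was 0.08. TUA4 had 805.9 and 815.1 CPM in HBI1-Ox, against 661.4 and 652.6 CPM in Col-0 (log2 change 0.30 ± 0.05, edgeR adjusted p = 0.0111). TUA6 and TUA2 had log2 changes of 0.21 ± 0.05 and 0.20 ± 0.05 (edgeR adjusted p = 0.0373 and 0.0452). None of the 3 passed with scaling by library totals, with the HBI1-Ox libraries summed or without either of them, and with the replicate block 1 did. The ratio of summed beta-tubulin to summed alpha-tubulin RPKM was 0.775 and 0.765 in the HBI1-Ox libraries, against 0.753 and 0.717 in the Col-0 libraries. Sequence shared between alpha-tubulin genes was not measured, so the effect of shared or uncounted reads on their values and this ratio is not known.

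Other lists held genes whose products fold tubulin or nucleate or bind microtubules. Of 6 tubulin folding cofactor genes and 9 genes of nucleation and cortical array assembly, none passed the test, with median log2 changes of 0.12 and 0.05; without Col-0 library 2, 2 cofactor genes passed as higher. Of 24 tested genes for microtubule-associated proteins (25 listed) 3 rose, 1 fell and 20 did not pass, with a median of -0.05. Few of this list were thus called, as among all tested genes, where 8.33% were called higher and 7.15% lower. CSI1, which links cellulose synthase complexes to microtubules, had 248.6 and 233.6 CPM in HBI1-Ox, against 186.0 and 183.7 CPM in Col-0 (log2 change 0.38 ± 0.06, edgeR adjusted p = 0.00812). FRA1, a kinesin needed for normal fibre walls, and MAP70-2 rose by 0.34 ± 0.07 each, and MAP65-6, of a family that bundles microtubules, had a log2 change of -0.28 ± 0.06 and fell. None of these 4 passed with the HBI1-Ox libraries summed or without either of them. MAP65-6 was also lost with the replicate block (edgeR adjusted p = 0.0513) and in DESeq2 (adjusted p = 0.147). MAP70-2 was lost in DESeq2 (adjusted p = 0.0763), and both MAP70-2 and FRA1 were lost with scaling by library totals (edgeR adjusted p = 0.0887 and 0.115). Without Col-0 library 1 or 2, 6 and 5 genes of this list passed as higher and 4 and 2 as lower; with library totals these counts were 1 and 3.

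Markers of several tissues also differed between the groups. All 6 genes of the xylem secondary wall rose, their sum being 322.9 and 322.6 CPM in HBI1-Ox, against 227.1 and 210.9 CPM in Col-0. Of 6 green tissue genes 4 rose (sums of 46163 and 47765 CPM in HBI1-Ox, against 39334 and 39127 CPM in Col-0), and of 8 root genes 3 fell, namely CASP2, CASP4 and CASP5 of the endodermal Casparian strip (sums over the 8 genes of 214.6 and 207.3 CPM in HBI1-Ox, against 239.5 and 238.4 CPM in Col-0). None of 5 genes of dividing cells passed (sums of 84.9 and 87.13 CPM in HBI1-Ox, against 89.47 and 78.85 CPM in Col-0). Beside these counts, 8.33% of all tested genes were called higher and 7.15% lower. Among genes averaging 50 CPM or more the shares were 20.9% and 7.3%. These counts too depended on the HBI1-Ox libraries. Without HBI1-Ox library 1, without library 2 and with both summed, the xylem genes called higher numbered 1, 2 and 2, and the green tissue genes 2 in each case. No root gene was called lower in those settings or in DESeq2, and 2 were with the replicate block. In whole seedlings a change in the number of cells of a type and a change of RNA per cell cannot be told apart, and the part of these tissues in the tubulin result was not tested.

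The window of 250 bases before the annotated start of each gene was searched for E-boxes (CANNTG, which covers both strands) and for the G-box (CACGTG), the E-box form bound by many plant bHLH proteins. All 9 windows held at least 1 E-box, as did 55.3% of 27443 windows of protein-coding genes. Among the 9, a G-box was present in TUB7 alone, which did not pass the test, 234 bases before the start, against 6.5% of all windows. The E-boxes of TUB2 and TUB3 and 1 of those in TUB6 read CATGTG, a form singled out after the windows were read, which 11.1% of all windows held on either strand. These 3 windows, of genes that rose, are given on the coding strand with E-boxes in capitals (TAIR10.1): chr5:25181046-25181295 for TUB2, chr5:25184008-25184257 for TUB3 and chr5:3963625-3963874 for TUB6.
TUB2: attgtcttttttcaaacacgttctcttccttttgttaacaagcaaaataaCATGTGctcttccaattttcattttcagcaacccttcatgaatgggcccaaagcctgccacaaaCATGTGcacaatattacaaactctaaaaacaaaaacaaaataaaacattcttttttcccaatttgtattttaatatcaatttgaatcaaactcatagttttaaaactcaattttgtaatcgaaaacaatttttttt
TUB3: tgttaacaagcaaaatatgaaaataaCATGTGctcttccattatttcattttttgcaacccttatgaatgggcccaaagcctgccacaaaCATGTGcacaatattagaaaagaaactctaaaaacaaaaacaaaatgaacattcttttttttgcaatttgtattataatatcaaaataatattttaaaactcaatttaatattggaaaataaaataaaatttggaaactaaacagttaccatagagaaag
TUB6: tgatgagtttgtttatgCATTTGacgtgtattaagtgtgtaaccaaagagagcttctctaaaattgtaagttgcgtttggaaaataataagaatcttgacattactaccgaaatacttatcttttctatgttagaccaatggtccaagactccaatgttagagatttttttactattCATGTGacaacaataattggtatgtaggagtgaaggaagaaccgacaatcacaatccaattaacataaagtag
In TUB2 the matches began 200 and 136 bases before the start and in TUB3 224 and 160 bases before it, the same 64 bases apart in both. The bases around the matches are also much alike in both genes, so TUB2 and TUB3 are not separate cases of this form. In TUB6 CATGTG began 73 bases before the start. TUB5 and TUB8, which also rose, held 1 E-box each, reading CAACTG 27 bases and CAAATG 46 bases before the start. TUB1, TUB4, TUB7 and TUB9, which did not pass the test, held E-boxes as well, so these matches are a description of the windows and not of binding.

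The genes closest to the summed beta-tubulin profile were sought among 12515 other genes averaging 10 CPM or more, by Euclidean distance between log2 CPM values centred over the 4 libraries. CESA6, a catalytic subunit of cellulose synthase in the growing wall, was among the 5 nearest (distance 0.0117), with 352.8 and 351.6 CPM in HBI1-Ox, against 298.6 and 284.9 CPM in Col-0. ARP8 (actin-related protein) was the nearest of all (0.00818) and did not pass the test (edgeR adjusted p = 0.0865). AT4G31860 (0.0116), AT3G01520 (0.0119) and AT1G43560 (0.0121) were the others. Among the members TUB5 lay nearest to the sum (0.0297) and TUB8 farthest (0.305). With 4 libraries many genes share such a profile, and nearness is a description only.

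**Figure D4:**
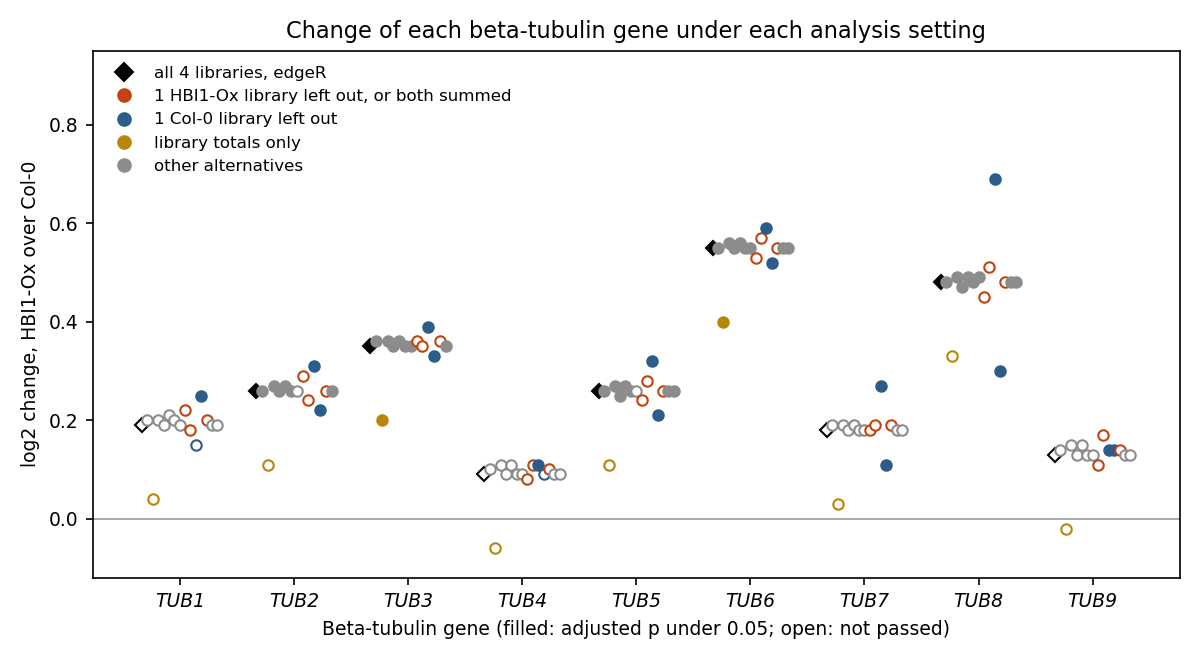
Log2 change of each beta-tubulin gene under the reported analysis (black diamonds) and each alternative, filled where the adjusted p was under 0.05 and open where it was not. Values with scaling by library totals are the lowest for every gene except TUB8, and every point without 1 HBI1-Ox library, or with both summed, is open.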

How the data were processed

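Seedling RNA of 2 HBI1-Ox and 2 Col-0 libraries was sequenced, with TruSeq library preparation per the labels' protocols. Per locus, the authors deposited raw read counts as whole numbers; the submitters' processing notes name TopHat, DESeq and build TAIR10, while counter and strand setting are not stated there. Rows of unassigned reads, 13.2% to 13.7% of each library, were left out. The authors' deposited table gives log2 fold changes.

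Of 33518 loci, 20320 passed filterByExpr (minimum count 10, minimum total 15). Counts were scaled with TMM and tested by the quasi-likelihood method of edgeR 4.0.16 (R 4.3.3) on all 4 libraries without a block, which leaves 2 residual degrees of freedom. The p-values were Benjamini-Hochberg adjusted across every gene tested, with calls at 0.05. The procedure was first tested on counts simulated with the same spread in both groups, unlike these libraries. It recovered 85.4% of 2-fold and 52.5% of 1.5-fold changes and called 9 of 19944 unchanged genes. Changes below 1.5-fold, as all those of beta-tubulin genes were, were not simulated. Alternatives used RLE factors, library totals, other filters, DESeq2 1.42.0, limma-voom 3.58.1, a replicate block, libraries left out in turn or summed, fewer genes, and TUB2 and TUB3 added together. RPKM used the merged exons of the RefSeq TAIR10.1 annotation.

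The members, lists and tests were chosen with earlier results of these data known. Named genes were the 9 members, HBI1, alpha-tubulin and actin genes, up to 4 called genes per direction in the other lists, and the 5 genes nearest in profile. Symbols are those of the lists, matched by locus.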

Additional observations from a re-analysis of the deposited data

How the results depend on the processing

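The summed beta-tubulin level was 0.27 higher in HBI1-Ox as a log2 ratio of group means and 0.12 higher with scaling by library totals. With library totals 995 genes were higher and 3494 lower (22.2% of calls higher, against 53.8% with TMM), and TUB4 and TUB9 had log2 changes of -0.06 and -0.02. The number of beta-tubulin genes called higher was 2 with library totals, 3 with the replicate block, 0 with the HBI1-Ox libraries summed, and 0 to 8 with each library left out in turn. Summing gave 307 higher and 271 lower genes in all, and leaving out a library gave 242 to 3516 higher and 187 to 3009 lower; the lone library of a group is then assumed to vary like the other group. DESeq2 gave 797 lower genes. In no setting run was a beta-tubulin gene called lower. Same-numbered libraries did not deviate together (correlation -0.00316 for libraries 1), so the block rests on a shared number only; with it TUB2 (edgeR adjusted p = 0.065) and TUB5 (0.0559) missed the threshold. All settings other than these gave 5 beta-tubulin genes, or 4 rows with TUB2 and TUB3 added. Each member had at least 653 reads in every library, and precision is limited by the 2 libraries per group.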

Other observations

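Actin forms the other main filament system of plant cells. Of 7 tested actin genes (8 listed) 1 rose, none fell and 6 did not pass, with a median log2 change of 0.15. For comparison, 8.33% of all tested genes and 20.9% of those averaging 50 CPM or more were called higher, so this count does not set actin apart. ACT7, the actin gene of young growing tissue, had 538 and 548.7 CPM in HBI1-Ox, against 456.3 and 408.9 CPM in Col-0 (log2 change 0.33 ± 0.07, edgeR adjusted p = 0.0238). It did not pass with scaling by library totals, with the HBI1-Ox libraries summed or without either of them. The number of actin genes called higher was 3 without the low-count filter, 2 in limma-voom, and 4 and 2 without Col-0 library 1 and 2. ACT11 had a log2 change of 0.32 ± 0.09 and missed the threshold (edgeR adjusted p = 0.0532). ACT2, widely used for normalising transcript levels, had 907.4 and 941.5 CPM in HBI1-Ox, against 927.4 and 915.4 CPM in Col-0, and the groups overlapped.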
